A study of Mus musculus with 18 samples.

Results

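Wnt signalling genes were measured across the layers of mouse neocortex at postnatal day 7. They were the rows of the count table named as a Wnt ligand, a Frizzled receptor, a member of the Sfrp, Dkk or Rspo families, Lrp5, Lrp6, Wif1 or Dixdc1. There were 45 of them among 54446 genes: 19 Wnt ligands, 10 Frizzled receptors, 2 Lrp co-receptors, 4 Sfrp, 4 Dkk, 4 R-spondins, Wif1 and Dixdc1. The list was drawn up with results of these data in view, and Dixdc1 had passed the FOXP2 against GFP test in L2-3 before it was added. Its L2-3 levels are therefore a description, with no test.

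The libraries came from 6 CD-1 mice, an outbred stock, electroporated in utero at E14.5, in embryonic life. The groups were 2 mice given human FOXP2 with Gfp (huFOXP2), 1 mouse given mouse Foxp2 with Gfp (moFoxp2) and 3 mice labelled GFP, given empty plasmid; the protocol can be read with or without Gfp cDNA for these. The promoter that drives FOXP2 is not given in the sources used here. Mice of either FOXP2 construct are joined as FOXP2 mice. All groups share the electroporation, which reaches only a share of the cells. From each mouse, 300 µm sagittal sections gave 1 pooled library each of layers 5-6 (L5-6), layer 4 (L4) and layers 2-3 (L2-3), so there were 18 libraries of total RNA. The labels describe L4 cells as GFP-positive, and those of L5-6 and L2-3 as GFP-negative. They give the term infragranular to L2-3 as well as to L5-6, which is not its usual name, so the layer of each library was taken from its title.

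Wnt proteins are secreted lipid-modified ligands that bind a Frizzled receptor together with the co-receptor Lrp5 or Lrp6. The signal passes through Dishevelled, stabilises β-catenin and lets it act with TCF and LEF factors on target genes; other branches act on cell polarity without β-catenin. Sfrp proteins and Wif1 bind Wnts outside the cell, most Dkk proteins block the Lrp co-receptors, and R-spondins raise receptor levels through Lgr receptors. In cortex the pathway is known for roles in progenitor division, axon and dendrite growth and vessel formation.

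The RefSeq promoter table (GRCm38.p6, 250 bases before to 50 after a gene's start) held 33 promoters of 29 members. Those of Wnt4 (chr4:137277385-137277684, plus strand), Wnt6 (chr1:74771642-74771941, plus strand) and Fzd1 (chr5:4758167-4758466, minus strand) are shown. The reason is that these members were lower in both L5-6 and L4 than in L2-3 in both sets of mice. Wnt6 could be called only as lower, since it passed the filter on low counts only through L2-3. 1 of the 3 listed Wnt5b promoters (chr6:119449337-119449636, minus strand) is shown for its TCF/LEF match, in capitals.
Wnt4: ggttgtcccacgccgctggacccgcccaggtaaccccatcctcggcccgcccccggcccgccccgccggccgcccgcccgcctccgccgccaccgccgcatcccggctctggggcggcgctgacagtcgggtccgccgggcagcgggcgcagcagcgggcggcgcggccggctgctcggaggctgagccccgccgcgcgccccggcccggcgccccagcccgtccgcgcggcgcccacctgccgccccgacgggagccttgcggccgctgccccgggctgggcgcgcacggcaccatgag
Wnt6: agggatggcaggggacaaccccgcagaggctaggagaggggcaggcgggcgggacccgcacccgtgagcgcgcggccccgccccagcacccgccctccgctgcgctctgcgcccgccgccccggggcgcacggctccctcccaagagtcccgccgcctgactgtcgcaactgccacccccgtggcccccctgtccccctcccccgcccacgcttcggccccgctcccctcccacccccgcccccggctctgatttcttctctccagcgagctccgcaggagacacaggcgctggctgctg
Fzd1: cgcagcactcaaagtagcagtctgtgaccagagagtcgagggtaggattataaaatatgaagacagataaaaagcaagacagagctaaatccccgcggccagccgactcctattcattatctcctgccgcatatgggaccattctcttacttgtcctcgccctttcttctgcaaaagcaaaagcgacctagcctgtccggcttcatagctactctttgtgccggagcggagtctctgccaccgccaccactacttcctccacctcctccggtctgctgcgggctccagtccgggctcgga
Wnt5b: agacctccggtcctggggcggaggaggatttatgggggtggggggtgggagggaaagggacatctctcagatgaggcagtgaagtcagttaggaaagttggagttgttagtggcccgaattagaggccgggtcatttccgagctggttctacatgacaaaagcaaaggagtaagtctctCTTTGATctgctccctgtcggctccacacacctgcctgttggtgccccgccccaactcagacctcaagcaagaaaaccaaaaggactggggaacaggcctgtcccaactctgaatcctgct
The TCF/LEF motif, searched as CTTTGAT and also as CTTTGAA on both strands, was in 3 of 33 member promoters (Dkk1, Wnt11 and Wnt5b) and in 8.65% of 32851 promoters. The forkhead motif, searched as TGTTTAC, also as TATTTAT and also as AATTTGT on both strands, was in 0 of 33 member promoters and in 11.6% of all. Median GC content was 67.7% in member promoters and 52.7% in all promoters, and these AT-rich letters are less frequent at a high GC content. A match is only a match of letters.

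Library totals ranged from 10111149 to 23404528 counts. Foxp2, the targeted gene, stood at 33.4 to 64.9 CPM in L4 of FOXP2 mice against 5.42 to 8.61 CPM in GFP mice, and at 20.3 to 51.5 against 1.76 to 6.62 CPM in L2-3. It was thus higher in FOXP2 mice in L2-3 too, whose cells the labels describe as GFP-negative. Its FOXP2 against GFP difference did not pass as changed between L4 and L2-3 (-0.012 ± 0.367, edgeR adjusted p = 0.993). In L5-6, where layer 6 cells express it, the sets overlapped, at 39.7, 77.9 and 69.6 CPM in FOXP2 mice and 61.6, 68.6 and 52.7 CPM in GFP mice, with huFOXP2 mouse 1 the lowest, so Foxp2 checks the construct labels in L4 and L2-3 only. All 9 layer 6 and subplate markers found in the table were higher in L5-6 than in either other layer in both sets of mice. Of the 6 layer 2-3 markers, 4 in FOXP2 mice and 6 in GFP mice passed as lower in L5-6 than in L2-3. In L4 against L2-3, 4 passed as higher in FOXP2 mice and 0 passed in GFP mice, and 0 passed as lower in either set. So L4 and L2-3 were not cleanly separated by these markers. Of the 4 layer 4 markers, 4 in FOXP2 mice and 1 in GFP mice passed as higher in L4 than in L2-3, and 0 passed as lower. A pair of mice stood apart. huFOXP2 mouse 1 had the highest sum of 9 meningeal fibroblast markers in L2-3 (1825 CPM), and its 6 photoreceptor markers summed to 17.3, 13.3 and 9.07 CPM in L5-6, L4 and L2-3. GFP mouse 1 had the lowest meningeal sum in L2-3 (333 CPM, with 778 and 1050 CPM in the other GFP mice) and the highest oligodendrocyte sum in L5-6 (3931 CPM).

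Of the 45 members, 31 had a mean of at least 1 CPM (CPM, counts scaled to library size with TMM factors over the 18 libraries). This held for 10 of 10 Frizzled receptors, both Lrp co-receptors, 3 of 4 Sfrp, 2 of 4 Dkk and 3 of 4 R-spondins, but for 9 of 19 Wnt ligands. Per kilobase of exon, the highest mean levels were those of Dkk3 (35.7 CPM per kb), Fzd3 (17.2), Dixdc1 (13.7), Wnt7b (7.96), Fzd9 (7.94), Sfrp1 (7.31), Wnt7a (6.35), Wnt4 (5.11) and Wnt9a (5.10). Neighbours in this order from Wnt7b on differ by less than the spread over libraries. The members below 1 CPM were Sfrp5 and Wnt16 (0.961 and 0.969 CPM), Wnt1, Wnt2, Wnt10a, Wnt10b, Wnt11 and Rspo4 (0.107 to 0.373 CPM), and 6 with at most 27 reads in all 18 libraries. Those 6 were Wnt9b with 27 reads, Dkk1 with 14, Wnt3a with 11, Dkk4 with 2, Wnt8b with 1 and Wnt8a with 0. A count of 0 over all libraries allows up to 0.0105 CPM, for counting error only.

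**Figure D1:**
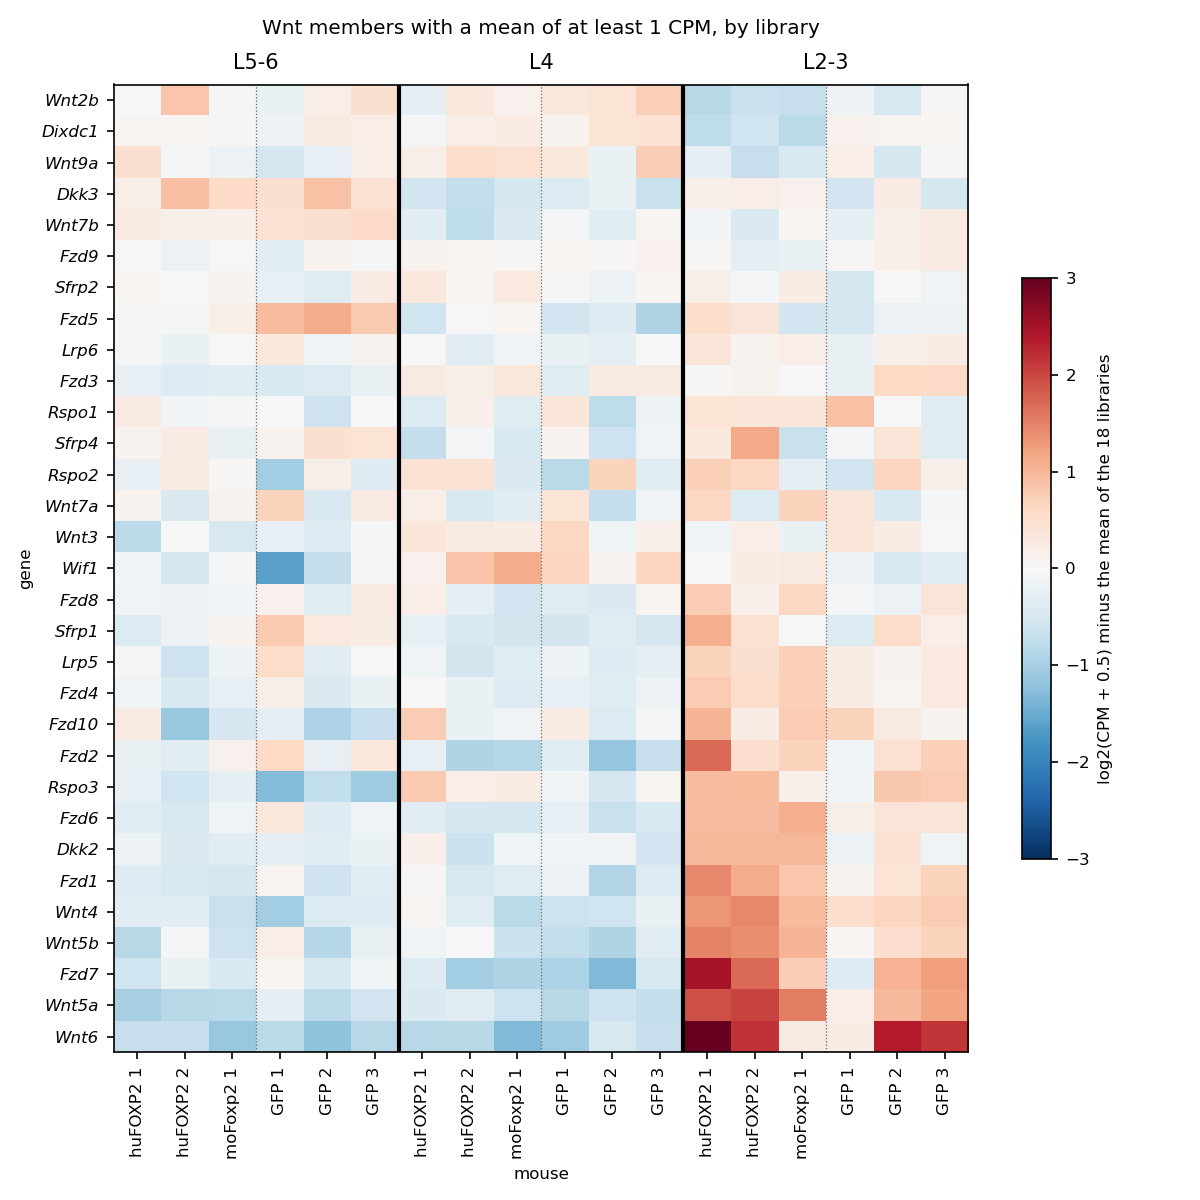
Heat map of the 31 members with a mean of at least 1 CPM (rows) in the 18 libraries (columns, grouped by layer, FOXP2 mice left of GFP mice). Colour is log2(CPM + 0.5) minus the member's mean over the 18 libraries, and rows are ordered by the L5-6 against L2-3 fold change in FOXP2 mice. The bottom 6 rows, from Wnt6 up to Fzd1, are reddest in the L2-3 libraries of mice other than GFP mouse 1. The L2-3 library of GFP mouse 1 is the palest of that layer in these rows, with Wnt5a at 16.3 CPM. In that mouse L2-3 was below L5-6 for Fzd7 (4.55 and 6.37 CPM) and Wnt5b (2.22 and 2.49 CPM).

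Which layers hold which Wnt genes was asked separately in FOXP2 mice and in GFP mice, which share no library, with the mouse as a block in each fit. The clearest layer pattern was of ligands that were high in L2-3: Wnt5a and Wnt4 were lower in both L5-6 and L4 in both sets. Wnt6 was called the same way, but it passed the filter on low counts only through L2-3, so it could be called only as lower. Wnt5a, a ligand best known for β-catenin-independent signalling through Ror receptors, lies on chromosome 14, 28504750 to 28527448 (mm10). In huFOXP2 mouse 1, huFOXP2 mouse 2 and the moFoxp2 mouse, an order kept throughout, it had 6.81, 7.65 and 7.78 CPM in L5-6, 10.2, 10.7 and 8.89 CPM in L4 and 54.9, 58.3 and 41.6 CPM in L2-3. In GFP mice 1, 2 and 3 it had 11.4, 7.96 and 9.27, 7.70, 8.93 and 8.38, and 16.3, 27.9 and 32.3 CPM in those layers. Every L2-3 library was above every library of the other layers. The log2 fold change ± SE of L5-6 against L2-3 was -2.81 ± 0.12 in FOXP2 mice (edgeR adjusted p = 9.82e-08) and -1.40 ± 0.23 in GFP mice (adjusted p = 0.00359). For L4 against L2-3 it was -2.40 ± 0.11 in FOXP2 mice (adjusted p = 2.87e-07) and -1.58 ± 0.24 in GFP mice (adjusted p = 0.008), lower in 3 of 3 mice each time. An exon of Gm2670 overlaps 358 bases of Wnt5a exons, and whether the counting used strand is not given in the sources used here.

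Wnt4 (chromosome 4, 137277489 to 137299726), a ligand named in kidney and gonad development, showed the same order. It had 14.52, 14.9 and 11.6 CPM in L5-6, 19.7, 14.2 and 10.4 CPM in L4 and 46.96, 51.5 and 36.2 CPM in L2-3 of the FOXP2 mice. The GFP mice had 8.79, 13.9 and 14.1 CPM in L5-6, 11.9, 12.1 and 16.1 CPM in L4 and 27.1, 29.4 and 32.1 CPM in L2-3. No L2-3 library overlapped the other layers. L5-6 against L2-3 gave -1.73 ± 0.12 in FOXP2 mice (adjusted p = 3.14e-06) and -1.28 ± 0.13 in GFP mice (adjusted p = 0.000356). Wnt6 (chromosome 1, 74771892 to 74785322) was nearly restricted to L2-3 in reads: FOXP2 mice had 10 reads in L5-6, 6 in L4 and 386 in L2-3, and GFP mice had 8, 12 and 202. Its L2-3 levels were 12.98, 5.16 and 1.02 CPM in FOXP2 mice and 0.966, 6.05 and 5.06 CPM in GFP mice, a wide spread in which the moFoxp2 mouse and GFP mouse 1 were low. Wnt6 passed the filter on low counts only through its L2-3 libraries, so its fitted changes (-4.83 ± 0.33 and -4.72 ± 0.53 for L5-6 against L2-3) had to be large. Wnt5b, close in sequence to Wnt5a, averaged 1.39 ± 0.569 CPM in L5-6, 1.71 ± 0.472 CPM in L4 and 6.02 ± 1.06 CPM in L2-3 of FOXP2 mice (SD, n = 3 each). It was lower in both deeper layers there (-2.13 ± 0.23 and -1.86 ± 0.23), whereas its changes of -0.87 ± 0.33 and -1.34 ± 0.35 in GFP mice did not pass.

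Other ligands were higher in L5-6 or L4 than in L2-3, or passed in 1 set of mice only. Wnt7b (chromosome 15, 85535437 to 85582473), which with Wnt7a acts on brain vessels, had 46.1, 42.2 and 42.3 CPM in L5-6, 30.5, 22.3 and 27.9 CPM in L4 and 35.9, 27.9 and 39.8 CPM in L2-3 of the FOXP2 mice. In GFP mice it had 51.7, 53.4 and 56.7 CPM in L5-6, 36.4, 30.5 and 39.4 CPM in L4 and 31.03, 43.1 and 44.9 CPM in L2-3. L5-6 was the highest layer in each of the 6 mice. L5-6 against L4 gave 0.72 ± 0.10 in FOXP2 mice (adjusted p = 0.000967) and 0.60 ± 0.12 in GFP mice (adjusted p = 0.0119), and L5-6 against L2-3 gave 0.33 ± 0.10 and 0.46 ± 0.12. The L5-6 against L2-3 calls of Wnt7b were lost without huFOXP2 mouse 1 or 2 in FOXP2 mice and without GFP mouse 2 or 3 in GFP mice. Both were also lost without the block. Its L5-6 against L4 call in GFP mice was lost without GFP mouse 2 or 3. Exons of AU022754 overlap 324 bases of Wnt7b. Wnt7a (chromosome 6, 91363981 to 91411363) varied more between mice than between layers, with 20.8, 14.1 and 20.6 CPM in L5-6, 22.3, 13.9 and 15.4 CPM in L4 and 29.7, 14.3 and 31.3 CPM in L2-3 of the FOXP2 mice. Its GFP values were 30.6, 13.8 and 23.4 CPM in L5-6, 25.6, 11.45 and 17.9 CPM in L4 and 24.9, 13.9 and 18.7 CPM in L2-3. Mice huFOXP2 2 and GFP 2 were the lowest of their group in every layer. With the mouse as a block, Wnt7a passed as lower in L5-6 and in L4 than in L2-3 in FOXP2 mice. Both calls were lost without huFOXP2 mouse 1, without the moFoxp2 mouse and without the block. In GFP mice Wnt7a passed in no layer comparison. Wnt2b (chromosome 3, 104945272 to 104961921) was higher in L4 than in L2-3 in both sets, by 0.81 ± 0.20 in FOXP2 mice (adjusted p = 0.00702) and 0.74 ± 0.17 in GFP mice (adjusted p = 0.0371). Its levels were 4.95, 7.82 and 6.81 CPM in L4 and 3.24, 3.69 and 3.66 CPM in L2-3 of FOXP2 mice. In the same layers of GFP mice they were 7.99, 8.45 and 10.4 and 5.51, 4.34 and 6.34 CPM. L5-6 had 6.20, 11.4 and 5.95 CPM in FOXP2 mice and 5.35, 7.16 and 8.86 CPM in GFP mice. Wnt2b also passed as higher in L5-6 than in L2-3 in FOXP2 mice, but not in GFP mice. It passed between L5-6 and L4 in neither set. Wnt9a was higher in both L5-6 and L4 than in L2-3 in FOXP2 mice (0.56 ± 0.17 and 0.86 ± 0.18). In GFP mice the values were -0.09 ± 0.20 and 0.40 ± 0.19, which did not pass, and neither did the difference between the sets. Wnt3 was lower in L5-6 than in L4 in FOXP2 mice (-0.81 ± 0.24, adjusted p = 0.0393). Wnt16 had 4.33, 3.01 and 0.439 CPM in L2-3 of FOXP2 mice and at most 1.04 CPM in any library of L5-6 or L4. In FOXP2 mice it passed as lower in L5-6 and in L4 than in L2-3, and DESeq2 called the L5-6 change only. The moFoxp2 mouse had more Wnt16 in L4 (0.726 CPM) than in L2-3.

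**Figure D2:**
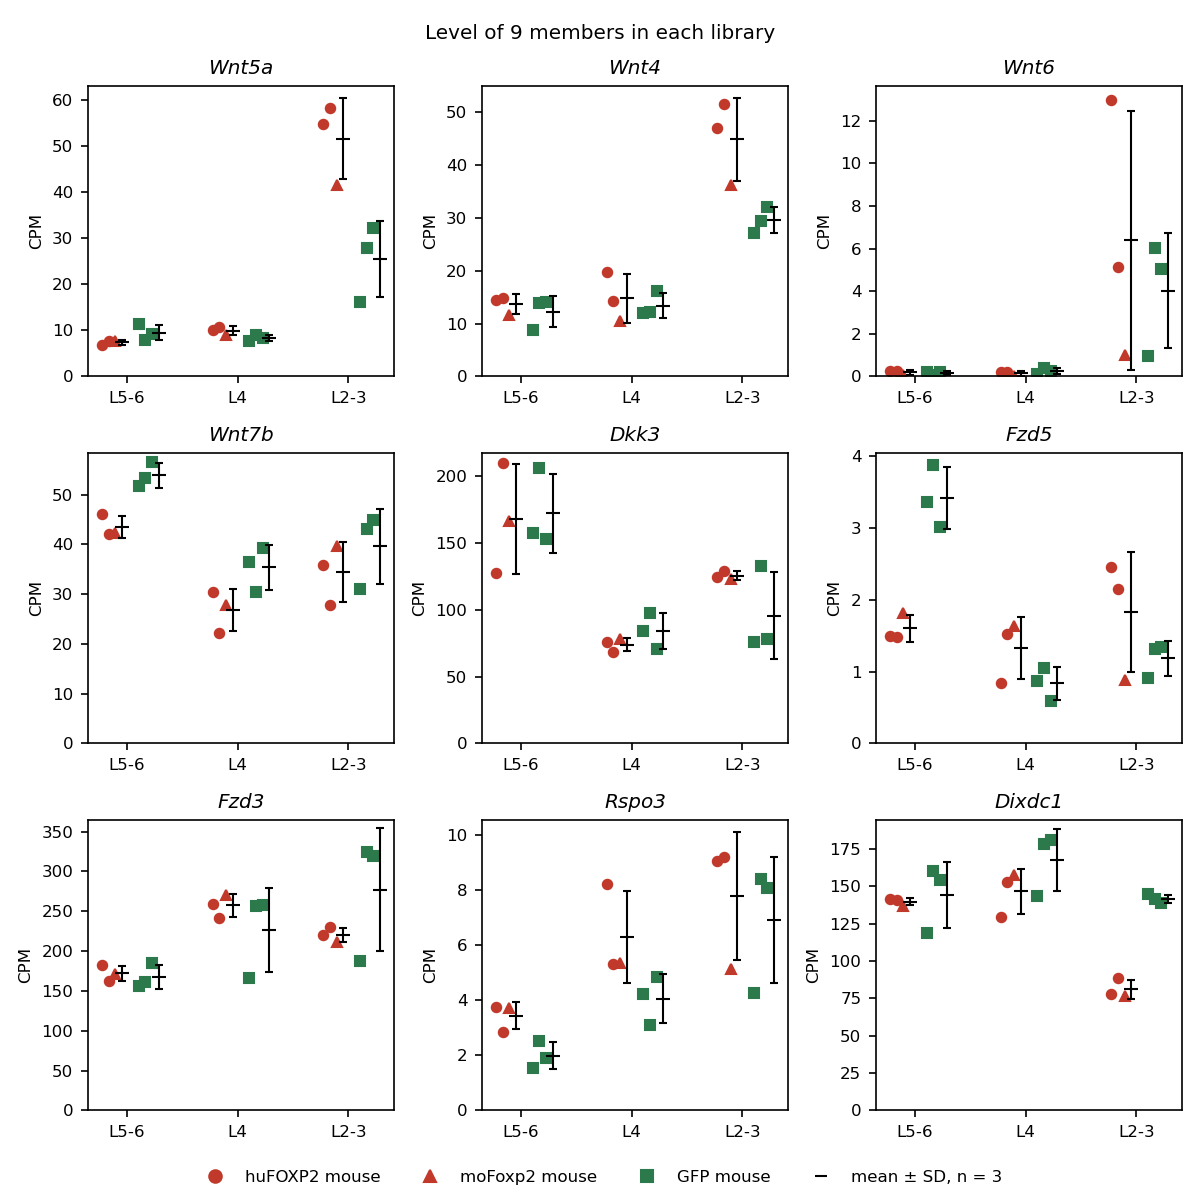
CPM of 9 members in each of the 18 libraries, by layer, with FOXP2 mice (red, circles for huFOXP2 and triangles for moFoxp2) left of GFP mice (green squares). Black bars give the mean ± SD of 3 mice; Wnt5a and Wnt4 were highest in L2-3, Wnt7b in L5-6, and Dixdc1 was at 76.4 to 88.6 CPM in L2-3 of FOXP2 mice against 139 to 145 CPM in GFP mice.

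Among the receptors, Fzd1, Fzd2, Fzd6 and Fzd7 were lower in L4 than in L2-3 in both sets of mice. Fzd7 (chromosome 1, 59482424 to 59486955), a receptor found on stem and progenitor cells, spread most within a layer. It had 3.82, 5.23 and 4.27 CPM in L5-6, 4.54, 2.77 and 2.99 CPM in L4 and 36.8, 20.9 and 10.5 CPM in L2-3 of FOXP2 mice. Its GFP libraries had 6.37, 4.26 and 5.69 CPM in L5-6, 2.89, 2.11 and 4.19 CPM in L4 and 4.55, 12.9 and 15.3 CPM in L2-3. In L2-3, huFOXP2 mouse 1 was the highest and GFP mouse 1 the lowest. L4 against L2-3 gave -2.71 ± 0.30 in FOXP2 mice (adjusted p = 6.33e-05) and -1.77 ± 0.39 in GFP mice (adjusted p = 0.0337). Fzd1 (chromosome 5, 4753839 to 4758035) had 8.31, 7.76 and 7.496 CPM in L5-6, 11.3, 7.82 and 8.53 CPM in L4 and 30.9, 24.7 and 20.2 CPM in L2-3 of the FOXP2 mice. For GFP mice the levels were 11.9, 7.07 and 8.66 CPM in L5-6, 9.73, 5.85 and 8.34 CPM in L4 and 11.9, 14.8 and 18.01 CPM in L2-3. It was lower in both L5-6 and L4 than in L2-3 in both sets, although in GFP mouse 1 L5-6 and L2-3 were level. For Fzd2 (chromosome 11, 102604396 to 102608058) L4 against L2-3 gave -1.77 ± 0.23 in FOXP2 mice and -1.18 ± 0.27 in GFP mice (adjusted p = 0.000163 and 0.0413), and for Fzd6 (chromosome 15, 39006034 to 39038188) -1.49 ± 0.10 and -0.79 ± 0.17 (adjusted p = 3.18e-06 and 0.0298). Exons of Gm26704 overlap 152 bases of Fzd6.

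Fzd3 (chromosome 14, 65192449 to 65262463), which acts with Celsr3 in axon guidance, had the highest level of the receptors per kilobase. It averaged 172 ± 9.53 CPM in L5-6, 257 ± 14.3 CPM in L4 and 221 ± 8.92 CPM in L2-3 of FOXP2 mice, and 168 ± 15.1, 227 ± 52.6 and 277 ± 77.3 CPM in GFP mice (SD, n = 3 each). It was lower in L5-6 than in L4 in both sets, by -0.56 ± 0.07 (edgeR adjusted p = 0.00057) and -0.42 ± 0.13 (edgeR adjusted p = 0.0463). The GFP call was lost with other size factors, without GFP mouse 2, without GFP mouse 3 and without the block. Fzd10 (chromosome 5, 128600844 to 128604093) was lower in L5-6 than in L2-3 in both sets, by -1.15 ± 0.16 in FOXP2 mice and -1.03 ± 0.13 in GFP mice. Fzd5 (chromosome 1, 64730558 to 64737751) had 1.499, 1.49 and 1.82 CPM in L5-6, 0.837, 1.52 and 1.63 CPM in L4 and 2.45, 2.15 and 0.878 CPM in L2-3 of the FOXP2 mice. In GFP mice it had 3.37, 3.88 and 3.02 CPM in L5-6, 0.867, 1.06 and 0.592 CPM in L4 and 0.909, 1.31 and 1.35 CPM in L2-3, so that its L5-6 libraries were the highest of all. L5-6 against L4 was 0.30 ± 0.40 in FOXP2 mice (adjusted p = 0.637) and 2.06 ± 0.26 in GFP mice (adjusted p = 0.00171). Exons of Gm38058 overlap 1233 bases of Fzd5, so its counts are uncertain. Fzd4, the receptor of norrin on vessels, and both Lrp co-receptors passed as lower in L5-6 and in L4 than in L2-3 in FOXP2 mice: Fzd4 by -0.98 ± 0.10 and -0.92 ± 0.10, Lrp5 by -0.94 ± 0.09 and -1.02 ± 0.10, Lrp6 by -0.32 ± 0.07 and -0.41 ± 0.07. In GFP mice none of these 3 passed. Fzd8 also passed in FOXP2 mice only (-0.70 ± 0.18 and -0.79 ± 0.18), and Fzd9 passed in none of the 6 layer comparisons.

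The secreted modulators differed from each other. Dkk3 (chromosome 7, 112116017 to 112159057), a divergent Dkk that is not a typical Lrp blocker, had 128, 210.1 and 167 CPM in L5-6, 75.6, 68.3 and 77.9 CPM in L4 and 124, 129 and 123 CPM in L2-3 of the FOXP2 mice. The GFP mice had 157, 207 and 153 CPM in L5-6, 83.9, 97.7 and 70.7 CPM in L4 and 75.7, 133 and 78.00 CPM in L2-3. Every L5-6 library was above every L4 library. L5-6 against L4 gave 1.19 ± 0.13 in FOXP2 mice (adjusted p = 0.000308) and 1.02 ± 0.11 in GFP mice (adjusted p = 0.000765). Dkk2, an Lrp-binding antagonist, was lower in L5-6 and L4 than in L2-3 in FOXP2 mice (-1.48 ± 0.20 and -1.33 ± 0.20), and did not pass in GFP mice. Sfrp1 (chromosome 8, 23411502 to 23449632) was lower in L5-6 and L4 than in L2-3 in FOXP2 mice (-0.71 ± 0.21 and -1.03 ± 0.22), with the L2-3 libraries at 63.4, 41.7 and 30.1 CPM. Without huFOXP2 mouse 1 or 2, and with DESeq2, the L5-6 change no longer passed, and it was as small as -0.30. In GFP mice Sfrp1 was higher in L5-6 than in L4 (0.93 ± 0.23, adjusted p = 0.0247), where L5-6 had 52.6, 37.2 and 35.05 CPM and L4 20.4, 23.2 and 21.2 CPM. Sfrp5 passed the filter only through its L5-6 libraries, which had 0.681, 0.880 and 1.12 CPM in FOXP2 mice and 3.00, 0.983 and 2.61 CPM in GFP mice. Sfrp2 passed in none of the 6 layer comparisons. Sfrp4 passed in 1, as lower in L4 than in L2-3 of FOXP2 mice (-0.98 ± 0.33). Wif1 also passed in 1, as lower in L5-6 than in L4 of FOXP2 mice (-1.21 ± 0.29).

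The R-spondin Rspo3 (chromosome 10, 29452416 to 29535867) was lowest in L5-6. It had 3.75, 2.86 and 3.71 CPM in L5-6, 8.23, 5.33 and 5.35 CPM in L4 and 9.07, 9.19 and 5.12 CPM in L2-3 of the FOXP2 mice. In GFP mice it had 1.54, 2.53 and 1.90 CPM in L5-6, 4.24, 3.09 and 4.83 CPM in L4 and 4.26, 8.39 and 8.08 CPM in L2-3. Every L5-6 library was below every L4 and L2-3 library of its set. Exons of Gm48159 overlap 404 bases of Rspo3. L5-6 against L2-3 gave -1.18 ± 0.22 in FOXP2 mice (adjusted p = 0.00156) and -1.76 ± 0.27 in GFP mice (adjusted p = 0.00223). Rspo1 had 5.72, 4.46 and 4.55 CPM in L5-6, 3.42, 5.33 and 3.54 CPM in L4 and 6.45, 6.27 and 6.29 CPM in L2-3 of the FOXP2 mice. In GFP mice Rspo1 had 4.76, 2.901 and 4.66 CPM in L5-6, 6.26, 2.60 and 4.24 CPM in L4 and 9.21, 4.74 and 3.59 CPM in L2-3. It passed once, as lower in L4 than in L2-3 of FOXP2 mice (-0.66 ± 0.19, adjusted p = 0.018), and Rspo2 passed in none of the 6.

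Over the members, L5-6 against L2-3 in FOXP2 mice called 23 of the 32 that passed the filter, Dixdc1 left out, 4 higher and 19 lower; over all genes tested 41.4% were called, 19.8% as higher and 21.6% as lower. In GFP mice 11 of 31 were called, 4 higher and 7 lower, where 22.7% of all genes were called (12% higher, 10.7% lower). L4 against L2-3 called 24 of 32 in FOXP2 mice, 3 higher and 21 lower, beside 43% of all genes (19.5% higher, 23.5% lower). In GFP mice it called 8 of 31, 1 higher and 7 lower, beside 6.06% of all genes (1.67% higher, 4.4% lower). L5-6 against L4 called 7 of 33 in FOXP2 mice, 2 higher and 5 lower, beside 20.2% of all genes (12.1% higher, 8.11% lower). The same comparison in GFP mice called 9 of 32, 6 higher and 3 lower, beside 22.7% (12.7% higher, 9.96% lower). These last 2 shares are near those of all genes. The median log2 fold change of the members that passed the filter was -0.55 for L5-6 against L2-3 and -0.66 for L4 against L2-3 in FOXP2 mice, and -0.30 and -0.33 in GFP mice, where those of all genes were within 0.02 of 0. Unlike the counts, these medians include Dixdc1, which was chosen from L2-3, so they describe the members only. Wnt6, Sfrp5 and, in FOXP2 mice, Wnt16 entered these counts only through 1 layer.

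Of the 31 members tested in both sets of mice, 9 were called in the same direction in both for L5-6 against L2-3, which is 40.9% of their 22 calls in FOXP2 mice and 81.8% of their 11 in GFP mice. Over all genes tested in both sets these shares were 32.5% and 59.8%. They were Dkk3 and Wnt7b, higher in L5-6, and Fzd1, Fzd3, Fzd10, Rspo3, Wnt4, Wnt5a and Wnt6, lower. For L4 against L2-3 there were 8, which is 34.8% of 23 calls in FOXP2 mice and all 8 in GFP mice, where those of all genes were 13.3% and 91.8%. They were Wnt2b, higher in L4, and Fzd1, Fzd2, Fzd6, Fzd7, Wnt4, Wnt5a and Wnt6, lower. For L5-6 against L4 there were 5, Dkk3 and Wnt7b higher and Fzd3, Fzd10 and Rspo3 lower, which is 71.4% of 7 calls in FOXP2 mice and 55.6% of 9 in GFP mice, near the 64.0% and 57.1% of all genes. No member was called in opposite directions in any of the 3 comparisons; of all genes 109, 1 and 0 were. Wnt6 could be called only as lower than L2-3, the layer through which it passed the filter. The number of GFP calls for L4 against L2-3 changed with the mice included. Without GFP mouse 2, 0 of 31 members passed, and 0 of 31 without GFP mouse 3, while 20 of 32 passed without GFP mouse 1. Each of these fits has 2 mice, and the share of all genes called in them is not given here. In the fits without mouse 2 or 3 the log2 fold changes stayed at -1.56 to -1.36 for Wnt5a and -1.21 to -1.09 for Wnt4.

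**Figure D3:**
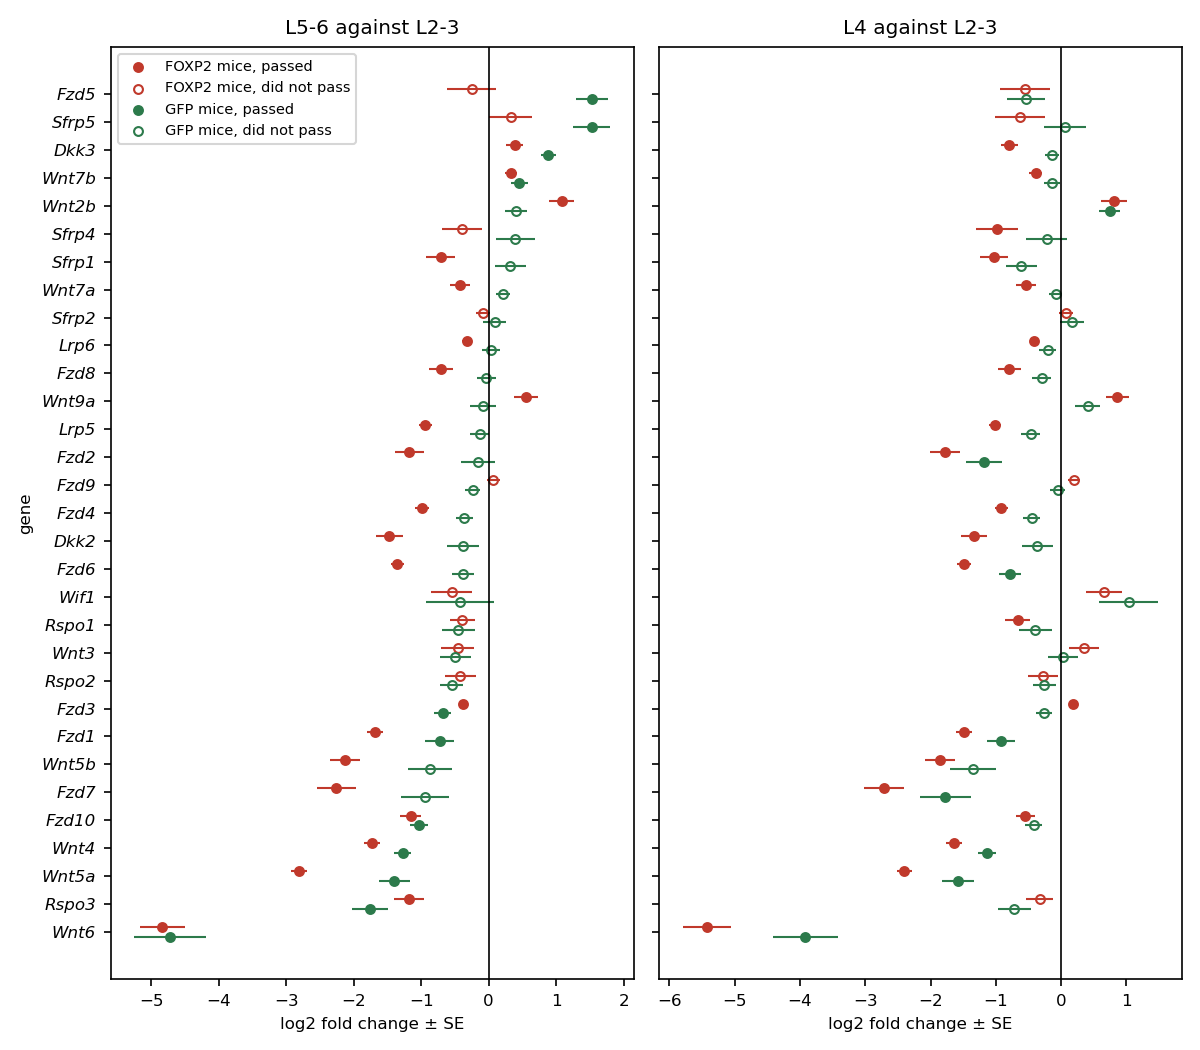
Log2 fold change ± SE of L5-6 against L2-3 (left) and of L4 against L2-3 (right) for the 31 members tested in both sets, FOXP2 mice (red) above GFP mice (green); filled points passed an adjusted p of 0.05. Wnt5a, Wnt4 and Fzd1 lie left of 0 with filled points for both sets in both panels, and so does Wnt6, which passed the filter only through L2-3.

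Markers of other cell types also differed between the layers. The summed level of 9 meningeal fibroblast markers was 29.2 to 36.1 CPM in L5-6, 34.2 to 66.7 CPM in L4 and 1247 to 1825 CPM in L2-3 of FOXP2 mice. In GFP mice it was 27.7 to 42.7, 21.7 to 77.3 and 333 to 1050 CPM. All 9 markers were lower in L5-6 and in L4 than in L2-3 in both sets. None was at 0 in all 3 libraries of a layer in either set, but 1 of the 9 had 0 counts in the L5-6 library of the moFoxp2 mouse. The 5 Cajal-Retzius markers summed to 148 to 161, 209 to 264 and 615 to 770 CPM in L5-6, L4 and L2-3 of FOXP2 mice, and to 63.7 to 137, 126 to 255 and 209 to 441 CPM in GFP mice. In each L5-6 library 1 or 2 of these 5 genes had 0 counts, so the sum there rested on the others. The 9 endothelial and pericyte markers summed to 376 to 499, 372 to 429 and 874 to 1300 CPM in FOXP2 mice and to 403 to 663, 342 to 492 and 635 to 779 CPM in GFP mice. Other markers went with L5-6. The 9 oligodendrocyte lineage markers summed to 1222 to 1806, 496 to 614 and 602 to 949 CPM in L5-6, L4 and L2-3 of FOXP2 mice and to 1360 to 3931, 505 to 718 and 620 to 708 CPM in GFP mice. In GFP mice all 9 were higher in L5-6 than in either other layer, beside Dkk3, Wnt7b and Fzd5; in FOXP2 mice 6 were higher than in L2-3 and 8 than in L4. The part of these cells in the Wnt differences was not tested. In bulk libraries, more cells of a type and more RNA per cell cannot be told apart.

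**Figure D4:**
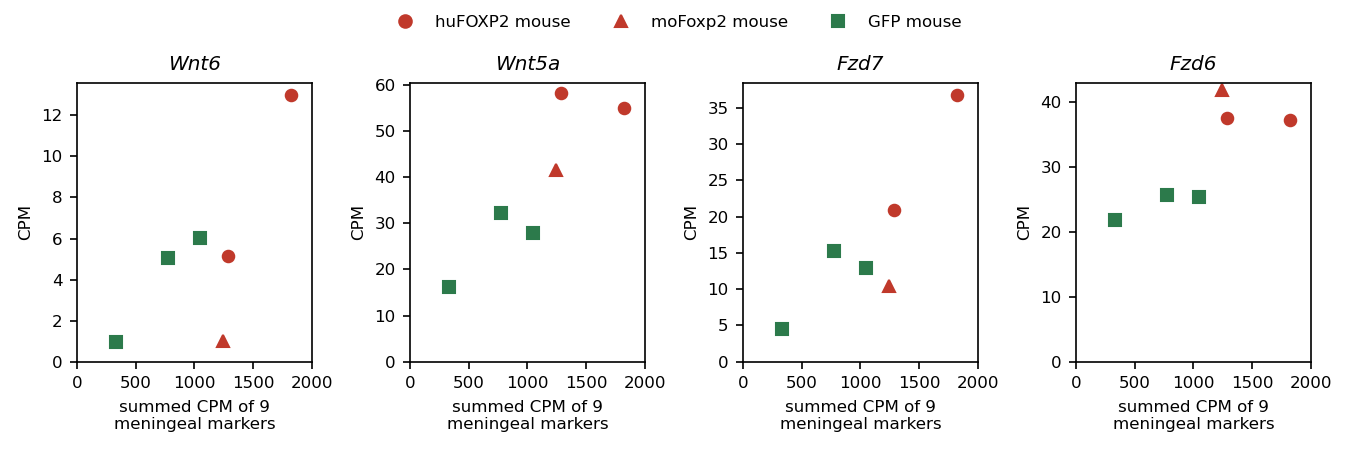
CPM of Wnt6, Wnt5a, Fzd7 and Fzd6 (vertical axes) beside the summed CPM of 9 meningeal fibroblast markers (horizontal axes) in the 6 L2-3 libraries, with huFOXP2 mice as red circles, the moFoxp2 mouse as a red triangle and GFP mice as green squares. GFP mouse 1, with the lowest sum of 333 CPM, was lowest in all 4 members, and huFOXP2 mouse 1, with the highest sum of 1825 CPM, was highest in Wnt6 and Fzd7 only.

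The rest of the pathway was followed in 7 lists of 67 further genes, some of them in 2 lists. Of 10 feedback targets of β-catenin, L5-6 against L2-3 called 1 higher and 8 lower in FOXP2 mice and 1 higher and 5 lower in GFP mice; L4 against L2-3 called 8 lower and 5 lower. Over all genes, L5-6 against L2-3 called 19.8% higher and 21.6% lower in FOXP2 mice and 12% and 10.7% in GFP mice, and L4 against L2-3 called 23.5% and 4.4% lower; these shares hold for the lists that follow too. Sp5, a target-gene repressor, changed by -3.77 ± 0.34 and -2.35 ± 0.33 between L5-6 and L2-3 in the FOXP2 and GFP sets, and Lef1, a nuclear partner of β-catenin, by -1.79 ± 0.16 and -1.12 ± 0.21. Notum, a secreted enzyme that inactivates Wnts, changed by -2.21 ± 0.21 and -1.30 ± 0.20. Lgr5, a receptor of R-spondins, was the 1 higher target, by 2.06 ± 0.40 and 2.60 ± 0.42. It averaged 2.00 and 1.71 CPM in L5-6 of FOXP2 and GFP mice. Its means in L4 and L2-3 were below the cutoffs of the filter on low counts (0.673 and 0.589 CPM). Lgr5 thus passed the filter only through L5-6 and could be called only as higher there. Axin2, the target most used as a readout of β-catenin signalling, was lower in L5-6 in FOXP2 mice (-0.67 ± 0.10), while its change of -0.04 ± 0.11 in GFP mice did not pass.

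Of 4 genes for Wnt secretion and release, L5-6 against L2-3 called 1 higher and 3 lower in FOXP2 mice and 0 higher and 2 lower in GFP mice. Wls, the carrier that brings Wnts to the cell surface, changed by -1.41 ± 0.14 in FOXP2 mice and -0.82 ± 0.22 in GFP mice. Of 12 tested other receptors and turnover genes, 1 was higher and 10 lower in FOXP2 mice, and 1 higher and 2 lower in GFP mice. The 1 higher gene was Lgr5 in both sets. Adgra2 and Reck, which on vessels form the receptor complex for Wnt7a and Wnt7b, were lower in L5-6 in both sets: Adgra2 by -1.90 ± 0.11 and -1.03 ± 0.15, Reck by -1.84 ± 0.17 and -0.65 ± 0.15. Of 8 tested other secreted modulators, 1 was higher and 5 lower in FOXP2 mice and 0 higher and 1 lower (Cthrc1) in GFP mice. Of 12 nuclear genes, 2 were higher and 6 lower in FOXP2 mice and 3 higher and 4 lower in GFP mice. Of the 16 cytoplasmic genes, 4 were higher and 1 lower in FOXP2 mice and 2 higher and 0 lower in GFP mice; Apc, a scaffold of the complex that destroys β-catenin, was higher in both (1.05 ± 0.07 and 1.09 ± 0.20). Of 9 planar polarity genes, 5 were higher and 3 lower in FOXP2 mice and 4 higher and 2 lower in GFP mice.

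FOXP2 mice were set against GFP mice within each layer, the question the electroporation addresses, with 3 mice a side. In L4, where per the labels the GFP-positive cells lay, 0 of 30 tested members passed the edgeR test, beside 0.0275% of all genes; 2 had an unadjusted p under 0.05 (Rspo3 and Wnt7b), beside 3.14% of all genes, and DESeq2 called 0. Wnt7b had 30.5, 22.3 and 27.9 CPM in FOXP2 mice and 36.4, 30.5 and 39.4 CPM in GFP mice, groups that did not overlap (-0.41 ± 0.15, adjusted p = 1). Groups also did not overlap for Rspo3, higher in FOXP2 mice (0.62 ± 0.26), and Wnt2b, lower (-0.47 ± 0.21). Of all genes tested, 3.82% did not overlap and were higher and 3.86% did not overlap and were lower. Fzd5 passed the filter in L4 only through its FOXP2 libraries.

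In L5-6, 0 of 31 members passed in edgeR, beside 0.0196% of all genes; 5 had an unadjusted p under 0.05, beside 6.17% of all genes, and DESeq2 called 0. Wnt7b had 46.1, 42.2 and 42.3 CPM in FOXP2 mice and 51.7, 53.4 and 56.7 CPM in GFP mice (-0.32 ± 0.09, adjusted p = 0.713). Fzd5, whose values are above, differed by -1.11 ± 0.24, and Rspo3 by 0.76 ± 0.27. Groups did not overlap for 4 members that were lower in FOXP2 mice (Fzd5, Sfrp1, Wnt5a and Wnt7b) beside 6.84% of all genes, and for 1 that was higher (Rspo3) beside 6.71%. Wif1 passed the filter in L5-6 only through its FOXP2 libraries. Wnt7b and Rspo3 thus had the same order of groups in L4 and L5-6, but libraries of these layers come from the same mice.

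In L2-3, 0 of 32 members other than Dixdc1 passed in edgeR, beside 0.0722% of all genes. Foxp2 itself did not pass there: 0 of the 9 tested layer 6 and subplate markers, Foxp2 among them, did. A member that did not pass may therefore still differ. The unadjusted p was under 0.05 for 10, beside 15.8% of all genes. Of these, 9 were higher in FOXP2 mice (Dkk2, Fzd1, Fzd4, Fzd6, Lrp5, Wif1, Wnt4, Wnt5a and Wnt5b), beside 9.96% of all genes, and Wnt2b was lower. DESeq2 called 8, which were these 9 without Wif1. The share of all genes that DESeq2 called is not given here, so its count cannot be set against all genes. Without GFP mouse 1, edgeR called 2. Fzd6 had 37.2, 37.6 and 41.98 CPM in FOXP2 mice and 21.8, 25.4 and 25.7 CPM in GFP mice, the smallest p of these (0.68 ± 0.11, adjusted p = 0.0701). Dkk2 had 6.36, 6.53 and 6.51 CPM in FOXP2 mice and 2.61, 4.22 and 2.69 CPM in GFP mice (1.03 ± 0.23, adjusted p = 0.106). Wnt5a, given above, differed by 1.03 ± 0.24 (adjusted p = 0.106). Groups did not overlap for 9 members that were higher, beside 11.6% of all genes, and for 1 that was lower, beside 8.98%. The L2-3 meningeal sum did not overlap either, at 1247 to 1825 CPM in FOXP2 mice against 333 to 1050 CPM in GFP mice; nor did the Cajal-Retzius sum (615 to 770 against 209 to 441 CPM) or the endothelial and pericyte sum (874 to 1300 against 635 to 779 CPM). The layer 2-3 neuron sum did not overlap and was lower in FOXP2 mice (1033 to 1089 against 1386 to 1541 CPM). So was the layer 4 neuron sum (71.4 to 85.1 against 138 to 241 CPM). The interneuron, red blood cell, choroid plexus and ependyma, and photoreceptor sums also did not overlap and were higher in FOXP2 mice. The part of all these cells in the differences was not tested.

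Whether the FOXP2 difference itself changed between layers was tested as an interaction over all 18 libraries with the mouse as a block. For L5-6 minus L2-3, 8 of 32 members other than Dixdc1 passed, all lower, beside 15.4% of all genes (6.75% higher, 8.66% lower). Wnt5a changed by -1.40 ± 0.28 (adjusted p = 0.0118), with a FOXP2 against GFP difference of -0.37 ± 0.19 in L5-6 and of 1.03 ± 0.24 in L2-3. Fzd6 changed by -0.96 ± 0.20 (adjusted p = 0.0126), Lrp5 by -0.80 ± 0.18 (adjusted p = 0.0155) and Fzd5 by -1.76 ± 0.47 (adjusted p = 0.0248). The other 4 were Fzd4, Fzd1, Dkk2 and Wnt7a, at -0.61 to -1.09. Of these 8, Fzd5 was the 1 with the larger of its differences in L5-6. The levels of Lrp5 were 24.3, 16.3 and 22.7 CPM in L5-6 and 41.1, 35.7 and 42.4 CPM in L2-3 of FOXP2 mice, and 37.4, 20.1 and 25.2 and 29.9, 27.4 and 31.2 CPM in GFP mice. GFP mouse 1 had the highest GFP value in L5-6 for Wnt5a, Fzd1, Fzd4, Fzd6, Lrp5 and Wnt7a, and the highest astrocyte sum there (3502 CPM). Without huFOXP2 mouse 1, 0 of the 32 passed, and without the block 0 passed. Over these 2 fits Wnt5a stayed at -1.39 to -1.30 and Fzd6 at -0.99 to -0.98. Markers of other cells also passed as lower in this interaction: 5 of 7 for astrocytes, 5 of 9 for endothelial cells and pericytes and 3 of 9 for the oligodendrocyte lineage. So did all 3 tested for red blood cells, 2 of 6 for microglia and 2 of 4 tested for choroid plexus and ependyma. For striatal neurons 2 of 6 passed as lower, and 1 each for meningeal fibroblasts and Cajal-Retzius cells. Of the 9 tested layer 6 and subplate markers, 1 passed as lower. That 1 was Foxp2 itself, the targeted gene (-2.72 ± 0.353, edgeR adjusted p = 0.0084). As higher passed 5 of 6 for layer 2-3 neurons, 3 of 4 for layer 4 neurons, and 1 each for layer 5 neurons and interneurons. Their part in the result was not tested. For L4 minus L2-3, 0 of 32 members passed in edgeR, beside 0% of all genes; 8 members had an unadjusted p under 0.05, beside 17.7% of all genes, and DESeq2 called 1, Dkk3.

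**Figure D5:**
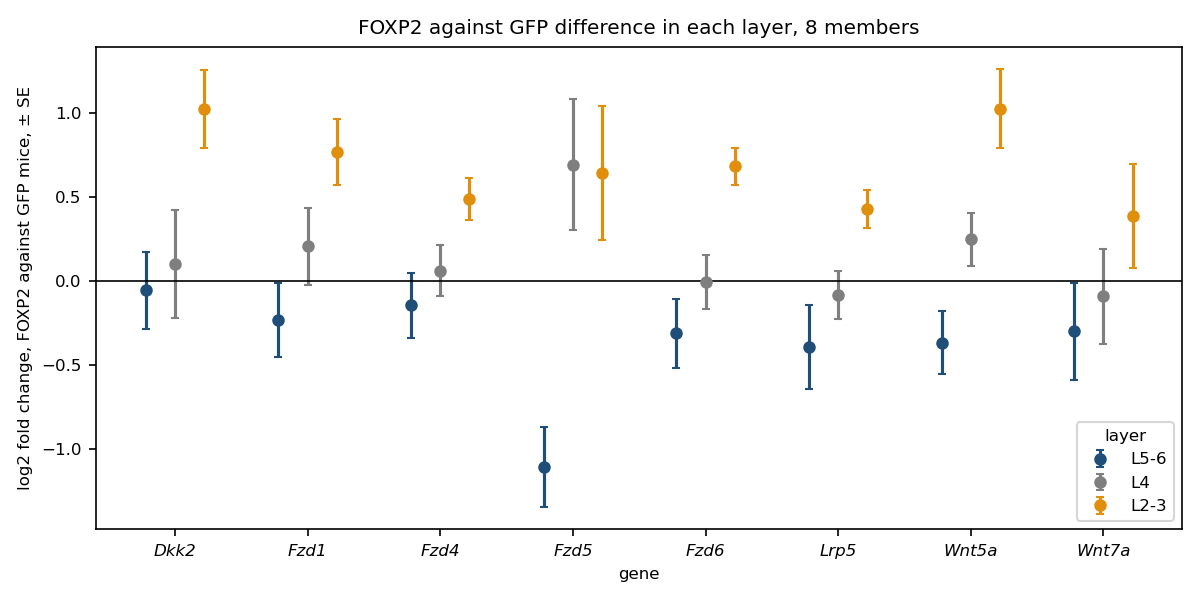
Log2 fold change ± SE of FOXP2 against GFP mice in L5-6 (blue), L4 (grey) and L2-3 (orange) for the 8 members whose difference changed between L5-6 and L2-3. The orange points lie above 0 and the blue points below 0 for each of the 8, and the L5-6 bars of Dkk2 and Fzd4 cross 0.

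Of the 64 tested genes in the 7 lists of the rest of the pathway, 0 passed in edgeR in any FOXP2 against GFP comparison within a layer. An unadjusted p under 0.05 was found for 6 in L5-6, 3 in L4 and 24 in L2-3, beside 6.17%, 3.14% and 15.8% of all genes. DESeq2 called 1 (Celsr1), 0 and 11. Its shares of all genes are not given here, so its counts cannot be set against all genes. In the interaction of L5-6 minus L2-3, 19 of 65 tested genes passed, where 6.75% of all genes passed as higher and 8.66% as lower. Of 9 planar polarity genes 4 passed as higher and 2 as lower, and of 8 other secreted modulators 1 as higher and 2 as lower. Of 12 other receptors 6 passed as lower, among them Ror2, a receptor of Wnt5a (-1.71 ± 0.28), and Reck (-1.18 ± 0.23). As lower also passed 2 of 12 nuclear genes and 1 of 4 genes for Wnt secretion and release. Axin2 was 1 of 3 feedback targets of 10 that passed as lower (-0.62 ± 0.14). Of the 16 cytoplasmic genes 0 passed in edgeR and 3 had an unadjusted p under 0.05, while DESeq2 called 2, Ctnnb1 and Gsk3b.

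Dixdc1 (chromosome 9, 50662752 to 50739517) encodes a DIX-domain protein that binds Dishevelled and promotes β-catenin signalling. In L2-3 it had 78.3, 88.6 and 76.4 CPM in FOXP2 mice and 145, 142 and 139 CPM in GFP mice, a log2 fold change of -0.81. The groups were far apart there, and both the huFOXP2 mice and the moFoxp2 mouse were low. The summed layer 2-3 and layer 4 neuron markers were lower in the same libraries, and their part was not tested. In L4 it had 129, 153 and 158 CPM in FOXP2 mice and 143, 178 and 181 CPM in GFP mice, which overlapped (-0.20 ± 0.12, adjusted p = 1). In L5-6 it had 141, 141 and 137 CPM in FOXP2 mice and 119, 160.1 and 154 CPM in GFP mice, which also overlapped (-0.06 ± 0.12, adjusted p = 0.879). L5-6 and L4 differed from L2-3 by 0.77 and 0.82 within FOXP2 mice and by 0.02 and 0.25 within GFP mice, given with no test because the L2-3 libraries of both had chosen the gene.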

How the data were processed

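The authors deposited raw read counts, whole numbers for 54446 genes in 18 libraries; STAR, HTSeq and mm10 are named per the submitters' processing notes, and the use of strand is not given in the sources used here. Counts were tested with edgeR 4.0.16 (R 4.3.3; TMM, filterByExpr with minimum count 10 and minimum total 15, quasi-likelihood test). P-values were adjusted over all genes tested (Benjamini-Hochberg, threshold 0.05), and an SE is the log2 fold change over the square root of F. The fits were tested on simulated data. Gene positions and exons are from GENCODE M21.

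The members and lists were chosen with earlier results of these data known. Values by library were given for Dixdc1, members past the threshold in a FOXP2 comparison or interaction, the 6 largest changes per direction between layers in GFP mice, and the highest of some families; the other members named beside them were added after their values were seen. Libraries of 1 mouse were paired by the labels and correlated at 0.263 to 0.673 over 15952 genes. Replicate libraries differed beyond counting noise (chi-square per degree of freedom 8.89 to 54.3). DESeq2 1.42.0, other size factors, no filter, no block and leaving out each mouse were alternatives. CPM carries counting error of the depths given.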

Additional observations from a re-analysis of the deposited data

Results flagged for a closer look

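For 8 members the FOXP2 against GFP difference itself changed between L5-6 and L2-3 of the same mice (interaction with the mouse as a block, edgeR adjusted p under the threshold), and each change was negative. It was -0.615 for Fzd4, the norrin receptor, -0.619 for Wnt7a, -0.796 for the co-receptor Lrp5 and -0.95 for Fzd1, all on the log2 scale. It was -0.96 for Fzd6, -1.087 for the antagonist Dkk2, -1.397 for Wnt5a and -1.76 for Fzd5. Over all genes tested, 8.66% passed as lower in the same interaction. Without huFOXP2 mouse 1, 0 of these 8 passed.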

How the results depend on the processing

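The values of named members that had passed, and the untested L2-3 values of Dixdc1, were compared over the alternatives in 608 cases: 493 kept their direction and their call (for Dixdc1, stayed within 1 SE), 110 kept the direction only, 5 moved (Dixdc1) and 0 reversed. Without the filter on low counts, the number of members called was 1 in L5-6 and 7 in L2-3 for FOXP2 against GFP (0 and 0 with it), 15 for L4 against L2-3 in GFP mice (8), 11 for L5-6 against L4 in FOXP2 mice (7), 15 for the interaction L5-6 minus L2-3 (8) and 5 for L4 minus L2-3 (0). DESeq2 called 8 members for FOXP2 against GFP in L2-3 and 1 for the interaction L4 minus L2-3, where edgeR called 0 and 0. Without the mouse as replicate block, 7 were called for L5-6 against L2-3 in GFP mice (11 with it), 3 for L4 against L2-3 in GFP mice (8), 4 for L5-6 against L4 in FOXP2 mice (7), 4 for the same in GFP mice (9) and 0 for the interaction L5-6 minus L2-3 (8). The cause was not tested. Shares of all genes called under these alternatives, or without each mouse, are not given here, so these counts cannot be set against all genes.

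Leaving out each mouse in turn gave 0 to 2 members called for FOXP2 against GFP in L2-3, 0 to 0 in L4 and in L5-6, and 0 to 13 for the interaction L5-6 minus L2-3 (0 to 0 for L4 minus L2-3). In FOXP2 mice it gave 17 to 22 for L5-6 against L2-3, 20 to 22 for L4 against L2-3 and 3 to 7 for L5-6 against L4 (3 without huFOXP2 mouse 2). In GFP mice it gave 5 to 19, 0 to 20 and 2 to 14 for those comparisons, the highest count each time without GFP mouse 1. For 2 mice against 2 the shared numbers of huFOXP2 and GFP mice as a replicate block called 0 members in every layer, as did the same mice without it; those numbers did not pair the mice (r from -0.283 to 0.179, 2 of 6 above 0.1).

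With 3 mice a side, and 1 of them alone in its construct, differences between huFOXP2 and moFoxp2 were not analysed here. Of the 14 members under 1 CPM, 12 passed the filter in no layer comparison. Several counts changed when GFP mouse 1 or huFOXP2 mouse 1 was left out. The summed meningeal, Cajal-Retzius and vessel markers of L2-3 were higher in FOXP2 than in GFP mice, with no overlap. The layer 2-3 and layer 4 neuron sums were lower there, also with no overlap. Of these markers, 0 passed edgeR's test singly.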
